A study of Mus musculus with 24 samples.

Results

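Expression of 10 genes known from pluripotent cells was followed in differentiated mouse ES cells: Pou5f1, Nanog, Zfp42, Klf4, Lin28a, Lin28b, Tdgf1, Utf1, Dppa4 and Dppa5a. They were taken by symbol from the deposited table of exon reads, with no use of their values, and occupy 11 of its 33079 rows because Lin28b has a pair of rows. Klf4, Lin28a, Pou5f1 and Lin28b exceeded a mean of 0.5 RPM (reads scaled to the library total alone) in WT or KO cells, as did 15112 genes of the table, and the other 6 did not. Genes near zero in 1 genotype can pass this filter only through the other genotype, so that counts over the 4 genes are not counts over the 10.

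WT cells were control mES cells carrying the Per2::Luciferase knock-in reporter, and KO cells were the same line with Rev-erbα and Rev-erbβ, nuclear receptors that repress transcription in the circadian clock, both disrupted by CRISPR/Cas9. Cells of both genotypes had been differentiated for 28 days by embryoid body formation, were treated with 100 nM dexamethasone, a glucocorticoid that synchronizes cultured cells, and were sampled at 4 h intervals between 12 and 56 h of treatment. Each of the 12 WT and 12 KO libraries held polyA-selected RNA pooled from 3 embryoid bodies, and each genotype had 1 library per time point. Genotype and cell line cannot be told apart, because all KO libraries came from the KO line and all WT libraries from the control line. Levels are given as RPKM (reads scaled to exonic length and library total), and the fragments on exons ranged from 6183500.5 to 10287969.0 per library. No undifferentiated ES cells were among the 24 libraries, and the levels below are therefore not expressed as a share of the ES cell level. In such pools a lower value can come from fewer cells of a type or from less RNA per cell, and these cannot be told apart. The time points of a genotype served as its replicates, so that an SD holds change over time as well as variation between pools.

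In ES cells, the transcription factors OCT4 (encoded by Pou5f1) and NANOG act with SOX proteins in a network that keeps cells undifferentiated, often at adjoining octamer and SOX elements. KLF4 belongs to the same network but is also made in epithelium, smooth muscle and other differentiated cells. ZFP42 (REX1), UTF1, DPPA4 and DPPA5A are nuclear or RNA-binding proteins used as ES cell markers, TDGF1 (Cripto) is the co-receptor of Nodal, and LIN28A and LIN28B bind precursors of the let-7 microRNAs and block their maturation. Most of these genes are silenced as embryoid bodies differentiate.

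To see what the genes share in sequence, the 250 bases upstream of each RefSeq transcription start were searched on both strands for ATGCAAA (core of the octamer bound by OCT4), CATTGT (bound by SOX factors) and AGGTCA (the hexamer within elements bound by REV-ERBs and other nuclear receptors). An upstream sequence was found for 8 of the 10 genes, and Dppa4 and Dppa5a were not matched. ATGCAAA was present upstream of Nanog and Zfp42, against 4.06% of 27025 promoters. CATTGT was present upstream of Nanog and Lin28a, against 10.99% of promoters, and also 158 bases upstream of a further Pou5f1 start (base 35508807 of chromosome 17), which lies within the gene and was not counted. AGGTCA was present upstream of Nanog and Pou5f1, against 13.8%. The Nanog window counted was that of the start at base 122707489 of chromosome 6. A further Nanog start at base 122707565, where the deposited coordinates of the gene begin, was not counted. Its window held the octamer core at 151 bases and the SOX motif at 143 bases, but no AGGTCA. Sequences are shown for these 3 genes with the octamer or the hexamer and for Tdgf1, whose RNA followed that of Pou5f1 most closely and whose window held none of the motifs. They are from GRCm38.p6, read 5′ to 3′ on the strand of the gene, with matches on either strand in capitals and no overlap between motifs.
Nanog, chr6:122707239-122707488, plus strand: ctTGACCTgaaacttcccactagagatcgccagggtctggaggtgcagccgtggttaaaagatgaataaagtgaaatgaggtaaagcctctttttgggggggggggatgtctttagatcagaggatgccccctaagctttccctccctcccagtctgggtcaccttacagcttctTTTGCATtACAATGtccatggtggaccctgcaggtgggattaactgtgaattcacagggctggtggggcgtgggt
Zfp42, chr8:43307010-43307259, minus strand: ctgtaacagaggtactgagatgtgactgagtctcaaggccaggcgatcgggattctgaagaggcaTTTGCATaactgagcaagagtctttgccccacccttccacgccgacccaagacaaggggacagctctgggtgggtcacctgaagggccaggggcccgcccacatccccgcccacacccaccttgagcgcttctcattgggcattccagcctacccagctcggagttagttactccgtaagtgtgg
Pou5f1, chr17:35505782-35506031, plus strand: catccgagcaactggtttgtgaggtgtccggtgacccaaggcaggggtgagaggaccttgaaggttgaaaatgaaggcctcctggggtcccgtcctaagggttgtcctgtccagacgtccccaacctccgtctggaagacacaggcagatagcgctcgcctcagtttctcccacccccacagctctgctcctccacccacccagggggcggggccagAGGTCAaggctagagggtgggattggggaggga
Tdgf1, chr9:110946159-110946408, minus strand: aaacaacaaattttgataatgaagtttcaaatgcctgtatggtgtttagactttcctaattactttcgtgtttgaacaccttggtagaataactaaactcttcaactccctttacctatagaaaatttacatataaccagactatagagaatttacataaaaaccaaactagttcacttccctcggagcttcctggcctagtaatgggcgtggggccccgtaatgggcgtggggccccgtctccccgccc
In the Nanog window shown the octamer core began 75 bases and the SOX motif 67 bases upstream of the start at base 122707489. Both were on the opposite strand and separated by 1 base. In the Zfp42 window the octamer core lay 185 bases, and in the Pou5f1 window AGGTCA 33 bases, upstream of the start. The windows of Klf4, Lin28b and Utf1 also held none of the motifs. These matches describe letters only.

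Levels of the 10 genes spanned more than 2 orders of magnitude per exonic length. Klf4 (chr4:55527137-55532475) had a mean of 12.4 RPKM over the 24 libraries, which placed it above 81.1% of the genes past the filter. It was followed by Lin28a (chr4:134003330-134018816) with 1.18 RPKM and Pou5f1 (chr17:35506032-35510777) with 0.876 RPKM, above 24.3% and 19.4% of those genes. The remaining genes were at trace levels, from 0.294 RPKM for Utf1 through 0.254 for Dppa5a, 0.184 for Lin28b and 0.181 for both Nanog and Tdgf1 to 0.0802 for Dppa4 and 0.0381 for Zfp42. Klf4 exceeded Lin28a in 24 of 24 libraries. Lin28a exceeded Pou5f1 in 17 of 24 libraries and Pou5f1 exceeded Utf1 in 17. Dppa5a, Lin28b, Nanog and Tdgf1 had no stable order, as Dppa5a exceeded Lin28b in 7 libraries, Lin28b exceeded Nanog in 12 and Nanog exceeded Tdgf1 in 13. Antisense transcripts annotated in GENCODE overlap Pou5f1 (Gm19553) and Lin28a (Gm13061), and since the use of strand in counting was not stated in the sources used here, reads of these pairs cannot be told apart. Pou5f1, Nanog and Dppa5a also have near-identical pseudogene copies, and their low values are uncertain to that extent.

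**Figure D1:**
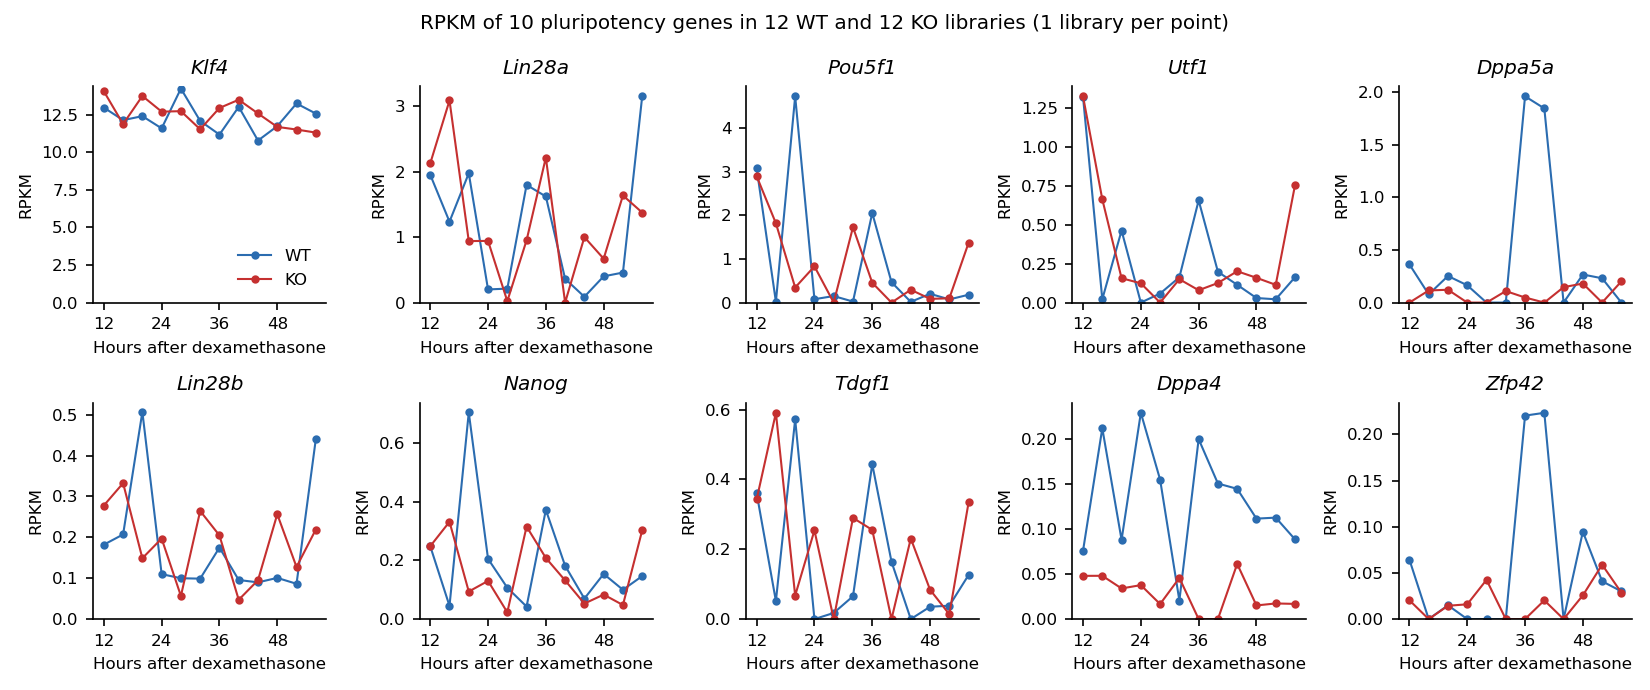
RPKM (vertical axes, each from 0, a separate scale per gene) of the 10 genes against hours after dexamethasone, in WT (blue) and KO (red) cells, with 1 library per point and no error bars because time points have no replicate. Klf4 stayed between 10.8 and 14.2 RPKM, whereas Pou5f1 moved between 0 and 4.73 RPKM and Dppa4 was lower in KO than in WT cells at 11 of 12 time points.

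Pou5f1 RNA was present in some pools and nearly absent from others. In WT cells it was 3.09, 0.0184, 4.73, 0.0777, 0.150, 0.0233, 2.06, 0.468, 0.0163, 0.202, 0.0728 and 0.180 RPKM from 12 to 56 h, and in KO cells 2.90, 1.82, 0.346, 0.831, 0, 1.73, 0.455, 0, 0.294, 0.0856, 0.0981 and 1.37 RPKM. The 3 high WT libraries were those of 12, 20 and 36 h, and the 16 h library between the first pair held 0.5 fragment of Pou5f1 beside 72 and 119 fragments in its neighbours, although it was the deepest of the 3, with 9092860.5 fragments on exons against 7854756.5 and 8419521.0. The 2 highest WT libraries carried 70.6% of the WT sum, and 5 WT and 4 KO libraries held fewer than 3 fragments, the limit that a count of 0 allows.

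Lin28a, an RNA-binding protein of ES cells and early embryos, was more widely present. It ranged from 0.0887 (44 h) through a median of 0.847 to 3.15 RPKM (56 h) in WT cells and from 0 (40 h) through 0.976 to 3.09 RPKM (16 h) in KO cells, and the genotypes overlapped over nearly the whole range. Its paralog Lin28b (chr10:45376619-45470201) had minima of 0.0863 and 0.0472 RPKM, medians of 0.105 and 0.201 and maxima of 0.507 (20 h) and 0.332 RPKM (16 h) in WT and KO cells, also with overlap. The rows of Lin28b in the table, of 5398 and 5143 bases, cover nearly the same reads, with WT means of 0.183 and 0.184 RPKM, and the longer was used.

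Nanog (chr6:122707565-122714633) reached 0.704 RPKM in the WT library of 20 h and 0.372 in that of 36 h, against a WT median of 0.150. In KO cells it ranged from 0.0230 (28 h) through 0.131 to 0.331 RPKM (16 h). Tdgf1 (chr9:110939608-110946158) ranged from 0 through 0.0585 to 0.572 RPKM (20 h) in WT and from 0 through 0.242 to 0.591 RPKM (16 h) in KO cells. Utf1 (chr7:139943856-139945112), a chromatin-associated factor of ES cells, had its maxima in the 12 h libraries of both genotypes, 1.32 RPKM in WT and 1.33 in KO cells, over medians of 0.138 and 0.153 RPKM. The WT and KO ranges of each of these genes overlapped, and their peaks fell in libraries in which Pou5f1 was also high.

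Klf4 stood apart from the rest in its evenness. It ranged from 10.8 (44 h) through 12.3 to 14.2 RPKM (28 h) in WT and from 11.3 (56 h) through 12.6 to 14.1 RPKM (12 h) in KO cells, with a coefficient of variation of 7.80% and 7.48%. Those of Pou5f1 were 167% in WT and 112% in KO cells.

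Low counts alone vary between libraries, and each gene was therefore set beside genes of like depth. The variance of fragments between libraries of a genotype, scaled to the median library total and divided by the mean, was 43.6 for Pou5f1, against a median of 1.25 among the 2599 genes with mean fragments within 2-fold, and placed it at percentile 99.5 of these. The index was 45.4 (percentile 99.0) for Lin28a, 10.8 (99.2) for Dppa5a, 10.4 (98.0) for Utf1, 2.93 (96.3) for Zfp42, 6.45 (94.4) for Tdgf1, 7.31 (91.8) for Lin28b and 4.97 (91.6) for Nanog. Klf4, with 3.84, was at percentile 72.7. Dppa4 was the exception among the rare transcripts, with an index of 0.691 at percentile 33.6. Percentiles are descriptions of these libraries and carry no test.

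**Figure D2:**
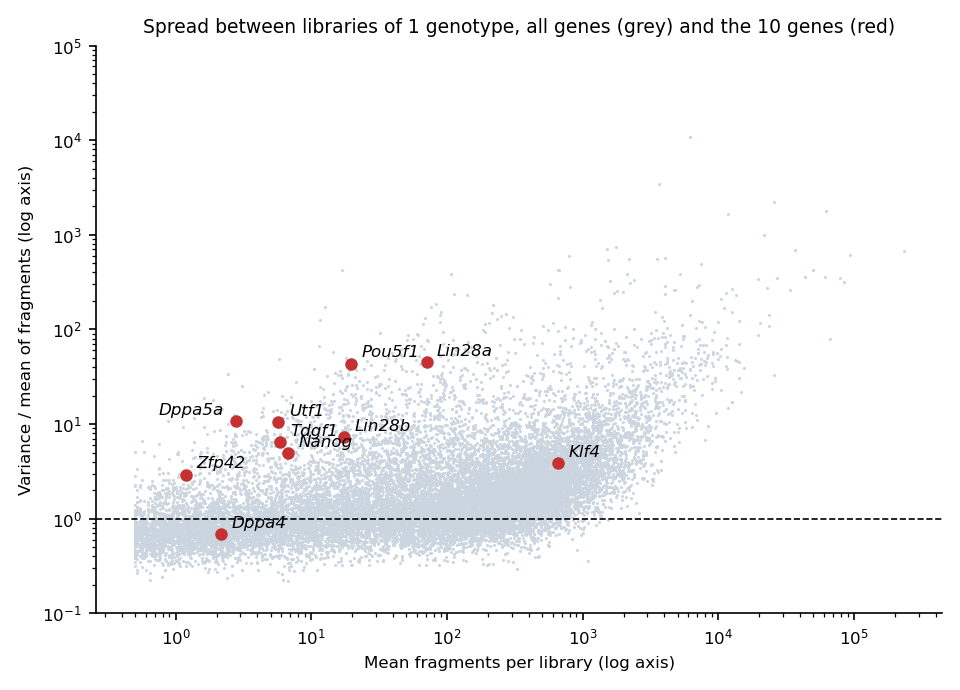
Variance of fragments between libraries of a genotype divided by the mean (vertical, log axis) against mean fragments per library (horizontal, log axis) for all genes with at least 0.5 fragment per library (grey) and the 10 genes (red). The dashed line marks a ratio of 1. Pou5f1 (43.6) and Lin28a (45.4) lie above nearly all genes of their depth, and Dppa4 (0.691) lies among them.

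The first comparison was between KO and WT cells, by limma on log2(RPKM + 0.1) with Benjamini-Hochberg adjustment over all genes tested. Of the 4 genes past the filter, 0 were called at an adjusted p under 0.05, while 25.9% of all 15112 genes were. At an unadjusted p under 0.05, 5728 of all genes passed and, again, 0 of the 4. Klf4 averaged 12.3 ± 0.961 RPKM in WT and 12.5 ± 0.936 RPKM in KO cells (SD, n = 12 each), a log2 difference of 0.02 ± 0.04 (SE) with a 95% interval from -0.07 to 0.11 (limma adjusted p = 0.758). The interval was narrow for Klf4 and wide for the other 3 genes.

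Pou5f1 averaged 0.924 ± 1.54 RPKM in WT and 0.828 ± 0.930 RPKM in KO cells (SD, n = 12 each). Its log2 difference, KO minus WT, was 0.39 ± 0.71 (SE), with a 95% interval from -1.08 to 1.85 (limma adjusted p = 0.724). The ratio of the mean RPKM was 0.896, so that the log scale, which weights the many low WT libraries, and the mean differed in sign. Lin28a averaged 1.12 ± 0.978 and 1.25 ± 0.904 RPKM, with a log2 difference of 0.15 ± 0.57 and an interval from -1.03 to 1.33 (limma adjusted p = 0.869). Lin28b averaged 0.183 ± 0.142 and 0.186 ± 0.0912 RPKM, with a log2 difference of 0.07 ± 0.21 and an interval from -0.38 to 0.51 (limma adjusted p = 0.849).

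Without the filter, limma tested 23247 genes and called 16.2% of them, of which those lower in KO cells were 9.40% of all tested. Among the 6 rare transcripts 1 was called, which is near the 16.2% over all genes. It was Dppa4 (chr16:48283735-48294292), a nuclear protein bound to chromatin in ES cells and encoded beside its relative Dppa2. In WT cells Dppa4 was 0.0757, 0.211, 0.0878, 0.228, 0.154, 0.0206, 0.199, 0.150, 0.144, 0.111, 0.112 and 0.0883 RPKM from 12 to 56 h, and in KO cells 0.0479, 0.0480, 0.0339, 0.0376, 0.0167, 0.0456, 0, 0, 0.0611, 0.0151, 0.0173 and 0.0168 RPKM. It was lower in KO cells at 11 of 12 time points, and 11 WT libraries exceeded the highest KO library, the exception being WT at 32 h. The share of all genes with groups set apart as far was not computed. The mean was 0.132 ± 0.0614 RPKM in WT and 0.0283 ± 0.0201 RPKM in KO cells (SD, n = 12 each), a ratio of 0.215, and the log2 difference of RPKM + 0.1 was -0.82 ± 0.13 (SE, limma adjusted p = 1.65e-04 without the filter). This rested on 42.5 fragments in all WT and 9 in all KO libraries. Each KO library and 5 WT libraries held fewer than 3 fragments, so the call is one on trace levels.

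Dppa5a (chr9:78367054-78368199), a small protein with an RNA-binding KH domain, had 56 fragments in WT and 11 in KO libraries. Of these, 20.5 fragments were in each of the WT libraries of 36 and 40 h, where it stood at 1.96 and 1.85 RPKM, and together they gave 73.7% of the WT sum. In the other WT libraries it did not exceed 0.363 RPKM, and in KO cells it ranged from 0 through 0.0788 to 0.202 RPKM. The means were 0.431 ± 0.7003 and 0.0771 ± 0.0777 RPKM (SD, n = 12 each), with a log2 difference of -0.85 ± 0.47 (SE, limma adjusted p = 0.242 without the filter). Zfp42 (chr8:43295067-43307009), a zinc finger protein of ES cells, peaked in the same libraries, at 0.220 RPKM in WT at 36 h and 0.223 at 40 h, against a highest KO value of 0.0589 RPKM (52 h). Its log2 difference was -0.28 ± 0.19 (SE, limma adjusted p = 0.363 without the filter). The log2 differences of Nanog, Tdgf1 and Utf1 were -0.11, 0.31 and 0.29, with limma adjusted p from 0.624 to 0.821 without the filter.

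**Figure D3:**
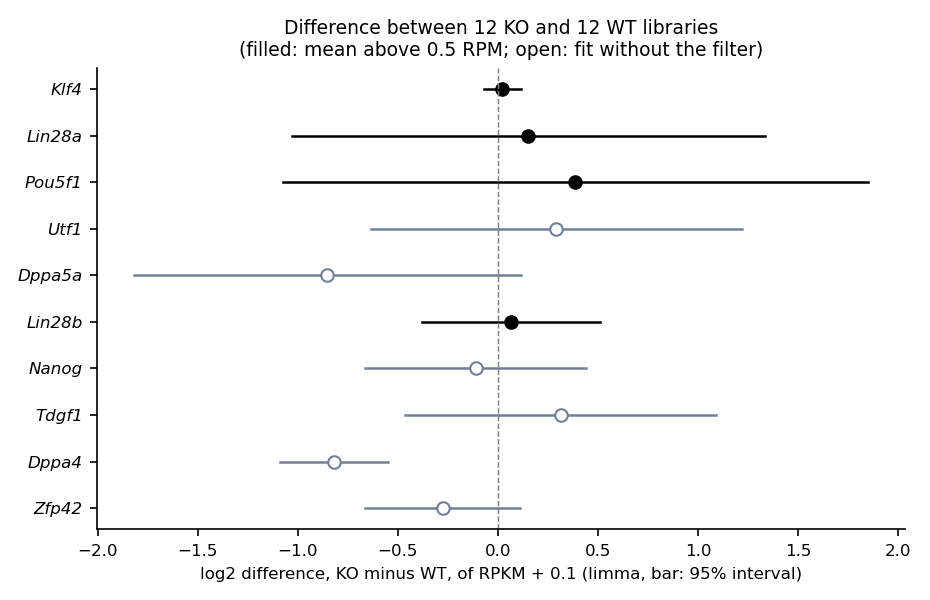
Log2 difference of RPKM + 0.1 between 12 KO and 12 WT libraries (horizontal axis, KO minus WT) for each of the 10 genes, as limma estimate and 95% interval. Filled points are from the fit of genes past 0.5 RPM and open points from the fit without this filter. The interval of Dppa4 lies below 0 (estimate -0.82), that of Klf4 is narrow around 0.02, and those of Pou5f1 and Lin28a span more than 2 log2 units.

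The next question was whether the genes changed over the sampled hours or followed a 24 h rhythm, as clock-controlled genes do. With a linear slope and a 24 h cosine fitted in each genotype by limma, 0 of the 4 genes past the filter had a slope in WT cells, against 2.38% of all genes, and 0 of 4 had one in KO cells, also against 2.38%. Slopes per 24 h on the log2 scale were -0.82 ± 0.92 (SE) in WT and -1.15 ± 0.92 in KO cells for Pou5f1 (limma adjusted p = 0.750 and 0.579). Those of Lin28a, Lin28b and Klf4 lay between -0.30 and -0.05. A difference in slope between genotypes was called for 0 of the 4 and 0% of all genes, with 964 of all genes at an unadjusted p under 0.05.

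A 24 h rhythm was called for 0 of the 4 genes in WT cells, against 0.0463% of all genes, and for 0 of 4 in KO cells, against 0.0728%. The fitted log2 amplitudes were 1.26 in WT and 0.49 in KO cells for Lin28a (limma adjusted p = 0.691 and 0.957) and 0.87 and 1.05 for Pou5f1 (limma adjusted p = 0.837 and 0.869). The amplitudes of Klf4 were 0.08 and 0.05. The rhythm differed between genotypes for 0 of the 4 and 0% of all genes, while 729 of all genes had an unadjusted p under 0.05. The unadjusted p of the 4 genes was above 0.05 in each of these tests.

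No correlation between WT and KO libraries of the same hour passed the threshold, which with 12 time points does not show that they were unrelated. Over the 12 time points the correlation of log2(RPKM + 0.1) between genotypes was r = 0.06 and rho = -0.07 for Pou5f1 (permutation test, two-sided, adjusted p = 0.845 and 0.835 over 4 genes), and r = -0.29 without the 2 hours farthest from the median of the gene in WT cells. For Lin28a it was r = 0.50 and rho = 0.38 (permutation test, adjusted p = 0.418 and 0.434), with r = 0.61 without its own 2 farthest hours, and for Klf4 r = 0.09 and rho = 0.07 (permutation test, adjusted p = 0.845 and 0.835), with r = 0.098 without its 2. Lin28b had r = 0.30 and rho = 0.52 (permutation test, adjusted p = 0.704 and 0.338), and r = 0.63 without its 2.

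Within a library, several of the genes were high or low together. Deviations from the genotype mean were correlated over the 24 libraries for the 6 pairs of genes past the filter, with permutation of libraries within genotype, which treats neighbouring hours as exchangeable. Pou5f1 and Lin28a had r = 0.61 and rho = 0.58 (permutation test, adjusted p = 0.00380 and 0.00848), Pou5f1 and Lin28b r = 0.65 and rho = 0.61 (permutation test, adjusted p = 0.00348 and 0.00744), and Lin28a and Lin28b r = 0.76 and rho = 0.73 (permutation test, adjusted p = 1.80e-04 and 3.00e-04). Without the 2 libraries farthest from the median the values were r = 0.57, 0.58 and 0.67. In KO libraries alone r was 0.74, 0.81 and 0.80, each past the threshold, and in WT libraries alone 0.48, 0.53 and 0.73, of which only the last passed (permutation test, adjusted p = 0.234, 0.192 and 0.0217). Klf4 was not part of this pattern, with r of 0.02 with Pou5f1, -0.09 with Lin28a and -0.12 with Lin28b. Many other genes past the filter also had an r above 0.5 with these genes. Their share was 3.31% for Pou5f1, 6.39% for Lin28a, 7.70% for Lin28b and 1.90% for Klf4.

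Among all 45 pairs of the 10 genes, an alternative added after the data were seen, 16 passed and all 16 were positive. The share of all genes past this threshold was not computed. An r above 0.5 was found for 0.179% of genes past the filter with Dppa4, 5.15% with Tdgf1 and 7.70% with Lin28b, the lowest and the 2 highest but for Lin28a (6.39%). Pou5f1 and Tdgf1 had r = 0.92 and rho = 0.88 (permutation test, adjusted p = 1.50e-04 and 2.25e-04), with 0.93 in WT and 0.91 in KO libraries. Pou5f1 had r = 0.87 with Nanog and 0.81 with Utf1. Pou5f1, Nanog, Tdgf1, Utf1, Lin28a and Lin28b, a grouping made after their values were seen, took 14 of the 16 pairs. Of the 15 pairs among them only Nanog with Lin28a (r = 0.41) missed the threshold by r. By rho 13 of the 15 passed, and Lin28b with Utf1 also missed (rho = 0.43, permutation test, adjusted p = 0.0975). Dppa4 had 0 of its 9 pairs past the threshold (r from -0.13 to 0.29) and Klf4 0 of 9 (r from -0.17 to 0.02). Dppa5a correlated with Zfp42 at r = 0.74 and rho = 0.55 (permutation test, adjusted p = 0.00658 and 0.0359). The r was 0.38 without the 2 libraries farthest from the median, the WT libraries of 36 and 40 h. In WT libraries alone rho was 0.84, while in KO libraries alone r was -0.41 and rho -0.25. Dppa5a also passed with Tdgf1 (r = 0.49, permutation test, adjusted p = 0.0449). By rho 4 of the 9 pairs of Dppa5a passed, those with Zfp42, Tdgf1, Pou5f1 and Nanog.

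**Figure D4:**
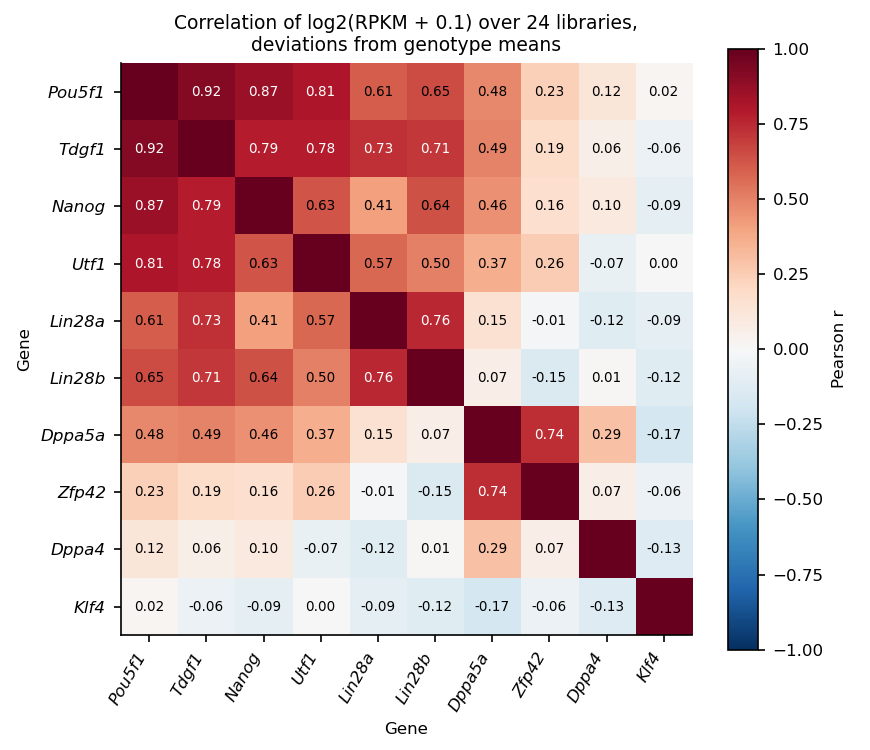
Pearson r between the 10 genes over 24 libraries, on deviations of log2(RPKM + 0.1) from the genotype means (red positive, blue negative, both axes list the genes). Pou5f1, Tdgf1, Nanog, Utf1, Lin28a and Lin28b form a block with r from 0.41 to 0.92, and Klf4 has no r above 0.02. Dppa5a has r = 0.74 with Zfp42 and r = 0.49 with Tdgf1 of the block.

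Counted by library, the 6 genes of the block were all among their own 6 highest values of 24 in WT at 20 h and in KO at 16 h, and 5 of the 6 were so in WT at 12 h and in KO at 12 h. In KO at 28 h all 6 were among their 6 lowest values, and in WT at 44 h 5 were. The sum of the 6 levels was 8.95 RPKM in the WT library of 20 h and 7.22 RPKM in the KO library of 12 h, but only 0.102 RPKM in the KO library of 28 h. High and low pools thus occurred in both genotypes and at neighbouring hours.

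**Figure D5:**
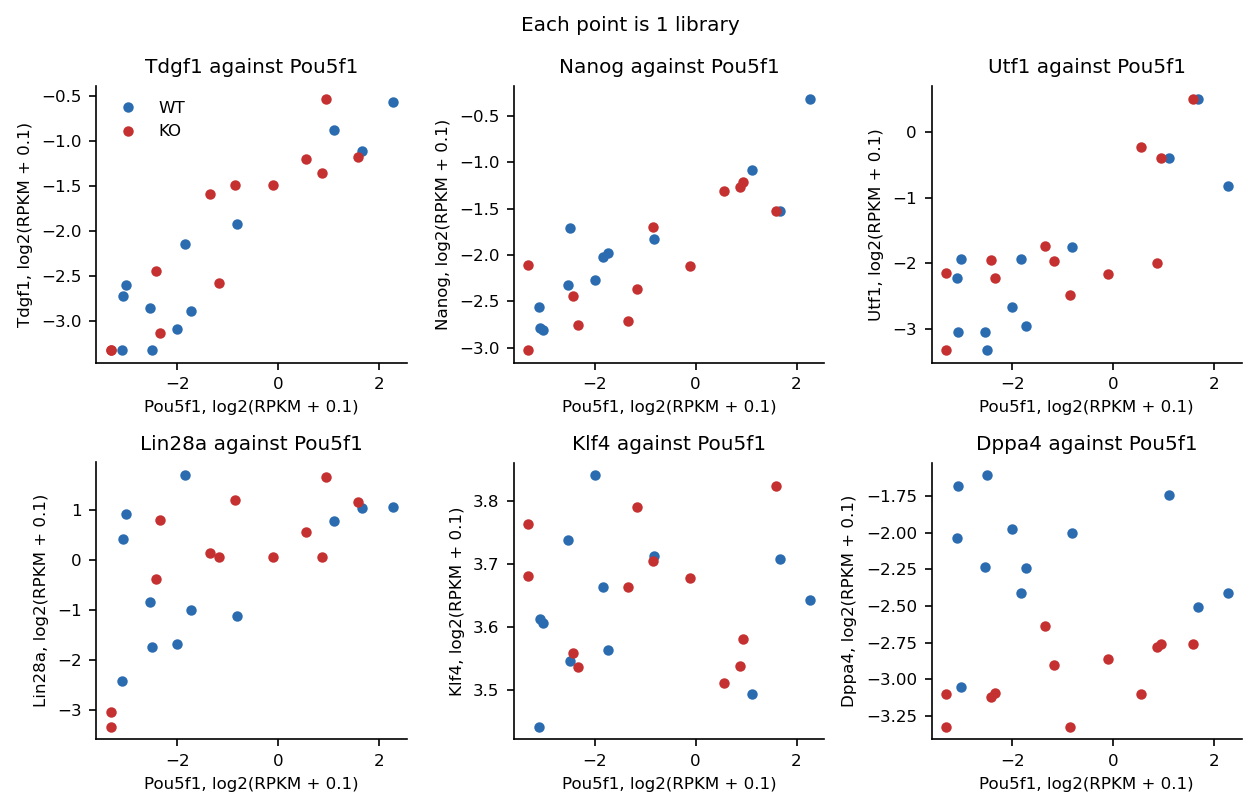
Log2(RPKM + 0.1) of 6 genes (vertical) against that of Pou5f1 (horizontal) in the 12 WT (blue) and 12 KO (red) libraries, with 1 library per point. Tdgf1 rises with Pou5f1 over its whole range (r = 0.92 on deviations from genotype means), Klf4 does not (r = 0.02), and most WT points lie above the KO points for Dppa4.

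Of all genes past the filter, those with the pattern most like that of Pou5f1 over the 24 libraries were Pim2, a serine/threonine kinase (r = 0.91), Dnmt3b, the de novo DNA methyltransferase of the early embryo (r = 0.85), and Trh, the thyrotropin-releasing hormone precursor (r = 0.79). An r above 0.5 with Pou5f1 was found for 3.31% of 15111 genes. Lin28a was most like Sall4, a zinc finger factor of ES cells (r = 0.93), Prtg, an immunoglobulin-superfamily protein (r = 0.87), and Cenpu, a centromere protein (r = 0.86). Lin28b was most like Prtg (r = 0.87), the spindle protein gene Spag5 (r = 0.87) and the condensin subunit gene Ncapd2 (r = 0.86). For Klf4 these were Srf, the transcription factor of muscle and immediate-early genes (r = 0.75), Ckap4 (r = 0.72) and Rtn4ip1 (r = 0.71). The libraries share their pool of embryoid bodies across all genes, and these values are descriptions.

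The label of the 10 genes was set beside 24 other pluripotency genes, all present in the table. Of these 11 passed the filter, and of the 11, 0 were called higher and 1 lower in KO cells by limma, beside 25.9% of all genes called in either direction. The lower gene was Klf2, a Krüppel-like factor also made in endothelium, with 11.1 ± 1.03 RPKM in WT and 9.70 ± 1.16 RPKM in KO cells (SD, n = 12 each; log2 difference -0.20 ± 0.06 SE, limma adjusted p = 0.0180). The median log2 difference of the 11 was -0.07, beside -0.01 over all genes. Mean levels of 8 of the 24 were under 0.1 RPKM, and 4 of the 11 had an r above 0.5 with Pou5f1, beside 3.31% of 15111 genes.

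In the list of 8 genes of epiblast and primitive streak, the tissues that follow the naive ES cell state in the embryo, 6 passed the filter. Of these 5 had an r above 0.5 with Pou5f1, beside 3.31% of 15111 genes, and Pou3f1 was only just past it (r = 0.5001). Lhx1, a LIM homeobox factor, was lower in KO cells, with 0.738 ± 0.254 RPKM in WT and 0.431 ± 0.211 RPKM in KO cells (SD, n = 12 each; log2 difference -0.72 ± 0.21 SE, limma adjusted p = 0.0146), and the other 5 were not called. Over all genes 25.9% were called in either direction. Of 12 germ cell genes 6 passed the filter and 0 had such an r with Pou5f1, beside the same 3.31% over all genes. Kit, the receptor of stem cell factor, was lower in KO cells (log2 difference -0.33 ± 0.11 SE, limma adjusted p = 0.0293). The other 5 germ cell genes past the filter were not called, beside the same 25.9% over all genes.

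The list of let-7 targets, which LIN28 proteins protect, held 9 genes. All 9 passed the filter, 0 were higher and 2 lower in KO cells (beside 25.9% of all genes called in either direction), Plagl2 (log2 difference -0.26) and Igf2bp2 (-0.14), and 7 were not called, with a median of 0.07. Igf2bp2, an RNA-binding protein, averaged 12.2 ± 0.721 RPKM in WT and 11.1 ± 0.631 RPKM in KO cells (SD, n = 12 each). Of the 6 let-7 processing genes 0 were called, and Zcchc6 and Drosha, a uridylyl transferase and the nuclear microRNA processing enzyme, had the highest levels with WT means of 8.49 and 6.41 RPKM.

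Of 11 genes of Nodal and Cripto signalling, in which TDGF1 acts, 7 passed the filter. Lefty1, a secreted inhibitor of Nodal, was higher in KO cells, with 0.307 ± 0.115 RPKM in WT and 0.518 ± 0.103 RPKM in KO cells (SD, n = 12 each; log2 difference 0.63 ± 0.12 SE, limma adjusted p = 6.34e-04). Acvr1b, a receptor of Nodal and activin, was lower (log2 difference -0.11 ± 0.03 SE, limma adjusted p = 0.00874), and 5 were not called. This stood beside 25.9% of all genes called in either direction. Nodal itself was under the filter, with 0.115 RPKM in WT and 0.105 in KO cells.

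Klf4 was compared with 16 other Klf genes, of which 14 passed the filter, with 3 called higher, 2 lower and 9 not called in KO cells. Of all genes 25.9% were called. Among the 5 called, the 4 with the largest changes were Klf12 (log2 difference -0.42), Klf2 (-0.20), Klf16 (0.18) and Klf10 (0.17). Summed levels of the 16 ranged from 113 to 135 RPKM in WT and from 113 to 134 RPKM in KO cells.

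Markers of some other cell types differed between genotypes, in a comparison that called 25.9% of all genes (1693 higher and 2225 lower in KO cells). Of 6 epithelial markers 4 were higher in KO cells and 0 lower, led by Krt8 and Cdh1 (log2 differences 0.71 and 0.67), with summed levels from 151 to 294 RPKM in WT and from 267 to 442 RPKM in KO cells. Of 4 smooth muscle markers 3 were higher, led by Cnn1 (0.48), with sums from 233 to 323 and from 246 to 361 RPKM. Of 3 fibroblast markers the collagen genes Col3a1 (0.35) and Col1a1 (0.21) were higher and Pdgfra (-0.33) lower, with sums from 1280 to 1666 and from 1414 to 2103 RPKM. Of 4 endothelial markers Pecam1 was higher (0.72), and 3 were not called, Cdh5 (0.62), Kdr (0.21) and Tek (-0.13). Their sums ranged from 5.11 to 18.0 RPKM in WT and from 8.68 to 16.1 RPKM in KO cells. The part of these markers in the genotype results above was not tested.

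The sets of 4 neural, 4 visceral endoderm and liver, and 3 trophoblast markers had 0 members called, beside 25.9% of all genes. They were led in level by Tubb3 and Map2, Afp and Apoa1, and Tfap2c and Elf5, and none of the marker genes was at 0 in all libraries. The log2 differences of the neural markers were all negative, -0.87 for Tubb3 (limma adjusted p = 0.0761), -0.69 for Map2 (limma adjusted p = 0.0619), -0.28 for Sox1 and -0.19 for Pax6. Among the trophoblast markers Cdx2 had -0.39 (limma adjusted p = 0.0618), Elf5 -0.01 and Tfap2c 0.50. The lack of calls does not show equal levels. Summed levels of the neural markers ranged from 3.29 to 24.9 RPKM in WT and from 2.15 to 11.5 RPKM in KO libraries, and those of the trophoblast markers from 2.29 to 6.58 and from 2.84 to 6.49 RPKM. Summed levels of the visceral endoderm and liver markers, among them genes of serum proteins, ranged from 76.9 to 1014 RPKM in WT and from 80.5 to 1014 RPKM in KO libraries, so that pools differed in other lineages as well. Of the 3 proliferation genes Mki67, Top2a and Ccnb1 0 were called, beside the same 25.9%, and their r with Pou5f1 was 0.48, 0.51 and 0.57. What these values contribute to the variation of Pou5f1 between pools was not tested.

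The nearest genes on either side were also examined, in the fit without the filter. Of 21 neighbours 17 could be fitted and 6 were called, 2 higher and 4 lower in KO cells, beside 16.2% called over all genes of that fit. Dppa2, 15982 bases to the right of Dppa4 and its partner in ES cells, was lower, with 0.0198 RPKM in WT and 0.00222 in KO cells (log2 difference -0.21, limma adjusted p = 0.0299), levels that rest on few fragments. Slc2a3, the glucose transporter gene 13176 bases beyond Nanog, was higher, with 20.8 and 28.3 RPKM (log2 difference 0.49, limma adjusted p = 0.0287), and had r = 0.23 with Nanog. Also called were Aim1l beside Lin28a (log2 difference 0.40), Lrrc2 beside Tdgf1 (-0.42), Kndc1 beside Utf1 (-0.55) and H2-Q10 beside Pou5f1 (-0.73). Their limma adjusted p ranged from 0.00235 to 0.0468. Tcf19, which ends 1958 bases from Pou5f1 on the other strand, had r = 0.48 with it. Only Ooep, an oocyte-expressed KH-domain gene 8704 bases from Dppa5a, had an r above 0.5 with its neighbour (r = 0.73), at 0.0181 RPKM in WT and 0.00341 in KO cells.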

How the data were processed

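PolyA-selected RNA of 24 libraries, 12 WT and 12 KO, was sequenced by the authors as 101-base pairs, trimmed with Trimmomatic 0.36, mapped to GRCm38 with STAR 2.5.4b, filtered at a mapping quality of 10 and counted on exons with Homer (versions per the submitters' processing notes). The authors deposited RPKM, reads scaled to exonic length and library total, and the strand setting is not given in the sources used here. RPKM multiplied by length and total gave multiples of 0.5 fragment for 100% of values (tolerance 0.005), used to describe depth only.

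log2(RPKM + 0.1) was fitted with limma (3.58.1, under R 4.3.3), a scale that understates changes of low genes, for genes above 0.5 RPM in either genotype, at an adjusted p under 0.05. The unfiltered fit is an alternative. Correlations used 100000 permutations in numpy 2.4.6. The limma fits were tested on simulated data. Nothing in the labels makes the time points of a genotype separate cultures, so p-values measure the spread between these libraries. The 10 genes and all lists were chosen with earlier results of these data known. Named genes are the 10, the 3 most alike for each gene past the filter, nearest neighbours, and from each list the called genes (at most 4) or else the 2 with the highest means. Upstream sequences are from RefSeq (GRCm38.p6) and antisense genes from GENCODE. Tests and alternatives beyond these are given at the end.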

Additional observations from a re-analysis of the deposited data

How the results depend on the processing

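Few values changed among the alternatives, but most lay far from the threshold in the main fit, so that keeping their side says little. Of 1011 alternative values 768 came from leaving out 1 library and not from other processing. In all 988 kept their direction and side of the threshold or, for counts of genes, stayed close. A block for the hour of sampling changed no call. The alternatives without the filter for the 6 rare genes, 28 for each gene, and the one for all 45 pairs were chosen after seeing the data. The number of the 10 genes called between genotypes rose from 0 to 1 without the filter (Dppa4, limma adjusted p from 1.37e-05 to 0.00206 over 28 further alternatives). The log2 difference of Lin28a, none of whose values passed, reversed to -0.10 with a pseudocount of 0.01 and -0.0078 in the first 6 time points, and that of Pou5f1 to -0.14 in the last 6. Genes called in all fell from 3918 to 1115 in the first and 1903 in the last 6 time points, and fewer libraries enter these fits. With 1 library left out the Lin28a difference ranged from -0.045 to 0.45 (-0.0071 without KO at 16 h) and that of Nanog without the filter from -0.19 to 0.036. The slope of Lin28a ranged from -0.79 to 0.075 in WT (0.0047 without 44 h) and from -1.02 to 0.67 in KO cells, and that of Lin28b in WT cells from -0.51 to 0.14 (0.077 without 40 h, 0.035 without 44 h), none past the threshold. The number of correlated pairs went from 3 of 6 to 1 in WT libraries alone, and to 16 among 45. In WT libraries alone Pou5f1 with Lin28a (r = 0.48) and with Lin28b (r = 0.53) no longer passed. Klf4 pairs changed sign to r = -0.15 (linear trend removed) and -0.082 (KO alone) with Pou5f1, and in WT alone to 0.086 with Lin28a and 0.033 with Lin28b, none past the threshold. The cause was not tested. Depth limits the 6 rare genes, most of whose libraries hold few fragments, and no alternative restores it.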

Other observations

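The 24 other pluripotency genes were not highest in the same pools. The WT library of 36 h held the highest of all 24 values for 7 of them, Prdm14, Fbxo15, L1td1, Dppa3, Tet1, Dnmt3l and Tdh, and the WT library of 40 h for 2, Fgf4 and Dppa2. These genes were singled out after their values were seen. Dppa3 (Stella), a gene of naive cells and germ cells, was at 0.262 RPKM in the WT library of 36 h, 0.0417 in its next highest library and 0 in the median library. Dnmt3l, the cofactor of de novo DNA methylation, was at 0.220 RPKM in that library and 0.102 in the next. Fgf4, a growth factor gene of the inner cell mass, had its 2 highest values in the WT libraries of 40 and 36 h, at 0.0473 and 0.0402 RPKM over a median of 0. With Dppa5a, which peaked in the same libraries, the r over 24 libraries was 0.78 for Fgf4, 0.75 for Prdm14, 0.70 for Dnmt3l, 0.55 for Tdh and 0.53 for Dppa3, but 0.43 for L1td1, 0.39 for Fbxo15, 0.15 for Dppa2 and 0.03 for Tet1, as a description of few reads.

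Nr0b1 and Zscan10 were highest in the WT library of 12 h and Eras in that of 20 h. Pou5f1 was high in these pools, but also in the WT library of 36 h, at 2.06 RPKM. Eras, an ES cell Ras gene, stood at 0.698 RPKM in the WT library of 20 h and at 0.0384 RPKM in the median library. Sall4 was highest in the WT library of 56 h, at 0.974 RPKM, as Lin28a was.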
